A study of Tupaia belangeri with 8 samples.

Results

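tch-miR-148a-3p and tch-miR-101 (miR-148a-3p and miR-101 below) are 2 of the 384 miRNAs listed in a small RNA sequencing study of primary neurons from neonatal tree shrews (Tupaia belangeri), a small mammal close to primates. They were chosen by their levels in these same libraries, which differed more than 10-fold between libraries whatever the treatment. Their spread over the libraries is therefore given as a description, without a test. The METH group had 4 libraries of brain-derived primary neurons collected 24 h after 5 µl of a methamphetamine stock, labelled 100 mmol, was added with 995 µl of medium to each well. The PBS group had 4 libraries from wells rinsed with PBS and given medium alone. All wells held neuronal medium with 15% fetal bovine serum. Methamphetamine is a psychostimulant that releases dopamine, and the study, which set out to isolate neurons with dopaminergic activity, asked how the drug damages them. The labels leave it unsaid if libraries within a group derive from different animals or cultures. The p-values below therefore reflect library-to-library spread, which may be technical.

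An miRNA guides the silencing complex to mRNAs through its seed, the short stretch near its 5′ end, and lowers their translation and stability. miR-148a-3p shares its seed with miR-148b-3p and miR-152, and in human cells the family represses the DNA methyltransferases DNMT1 and DNMT3B. miR-101 represses EZH2, the Polycomb enzyme that methylates histone H3 and keeps genes silent, and in human tumours its loss goes along with high EZH2. The mRNAs of these enzymes were not analysed here.

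Total miRNA counts ranged from 339243 in METH 3 to 7334789 in PBS 4. On the first principal component, which held 65.7% of the variance, METH 3, PBS 1 and PBS 3 lay far from the others (−18.64, −14.64 and −13.03, against 6.34 to 11.94). These 3 were also the shallowest libraries, with 339243, 526031 and 388419 counts. METH 1, METH 2 and PBS 2 were little deeper, with 642982, 680580 and 778888 counts. The far deeper libraries were METH 4 and PBS 4, with 6702946 and 7334789 counts. Of the 8 neuron-enriched names listed as markers, miR-9, miR-128, miR-129 and miR-218 were measured, and they summed to 49886, 26698, 90354 and 19113 TPM in METH 1 to 4 and to 91525, 27641, 19234 and 18608 TPM in PBS 1 to 4. TPM here is a count scaled to the library's total of listed miRNA reads. The sum was mostly miR-9-5p, with 71931, 83062 and 11977 TPM in METH 3, PBS 1 and PBS 3, and its members did not move alike. miR-218-5p was lowest in METH 3, PBS 1 and PBS 3 (554, 688 and 353 TPM, against 1249 to 2307 TPM in the others), and miR-129-5p was highest there (15072, 5663 and 2865 TPM, against 1372 TPM or less). miR-128 was highest in PBS 3, at 4039 TPM. miR-124, the defining neuronal miRNA, matched none of the 384 names, so its level was not analysed here. Levels below are normalised CPM, counts scaled in the same way to a library size adjusted by TMM (a factor that evens out the bulk of miRNAs between libraries), unless TPM is named.

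miR-148a-3p was among the most abundant miRNAs of 5 libraries and far down the list of the other 3. Its level was 161862, 48252, 2204 and 73535 normalised CPM in METH 1 to 4, and 6038, 213372, 4375 and 65179 normalised CPM in PBS 1 to 4. METH 3, PBS 1 and PBS 3 were low, the other 5 libraries were high, and the groups overlapped. As a share of all miRNA counts it made up 12.0%, 4.88%, 0.247% and 5.82% in METH 1 to 4 and 0.890%, 13.9%, 0.805% and 5.51% in PBS 1 to 4. By count it was the miRNA of rank 2, 3, 42 and 2 in METH 1 to 4 and of rank 24, 2, 26 and 2 in PBS 1 to 4. Over all libraries it averaged 55048 TPM, close to the predicted novel_2 at 54921 TPM and far below miR-21-5p, an miRNA induced by injury and stress, at 284395 TPM. In METH it averaged 57401 TPM, against 48447 TPM for novel_2, and in PBS 52694 TPM, against 61395 TPM for novel_2.

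From low to high, the order for miR-148a-3p was METH 3, PBS 3, PBS 1, METH 2, PBS 4, METH 4, METH 1 and PBS 2. The widest step lay between PBS 1 and METH 2, where the level was 7.99 times higher (95% interval of the ratio of counts 7.75 to 8.24). Each step in this order was larger than counting error, the smallest being a ratio of 1.13 of METH 4 to PBS 4 (1.12 to 1.13). PCR reads without molecular identifiers are not independent molecules, so these intervals and those of shares cover counting error only. The lowest share, in METH 3, had a 95% Wilson interval of 0.231% to 0.264%. In a culture, fewer cells of a type that makes an miRNA and less of it per cell cannot be told apart.

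miR-101 was far less abundant and fell into the same high and low libraries. Its level was 1459, 917, 44.8 and 1927 normalised CPM in METH 1 to 4, and 92.8, 1037, 43.4 and 1351 normalised CPM in PBS 1 to 4. The 3 low libraries were again METH 3, PBS 1 and PBS 3, with 17, 72 and 31 reads, and the groups overlapped. Its share was 0.108%, 0.0927%, 0.00501% and 0.153% in METH 1 to 4 and 0.0137%, 0.0674%, 0.00798% and 0.114% in PBS 1 to 4. The interval of the METH 3 share, 0.00313% to 0.00803%, shows how little 17 reads fix that value.

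The order for miR-101 was PBS 3, METH 3, PBS 1, METH 2, PBS 2, PBS 4, METH 1 and METH 4. PBS 3 and METH 3 were not told apart by counting error (ratio of METH 3 to PBS 3 1.03, 95% interval 0.536 to 1.92), nor were METH 1 and PBS 4 (ratio of METH 1 to PBS 4 1.08, 0.998 to 1.17). The widest step again lay between PBS 1 and METH 2 (ratio 9.87, 7.73 to 12.8). Within the high libraries the order was not that of miR-148a-3p. PBS 2 had the highest miR-148a-3p of all libraries but the second lowest miR-101 of the 5 high ones.

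**Figure D1:**
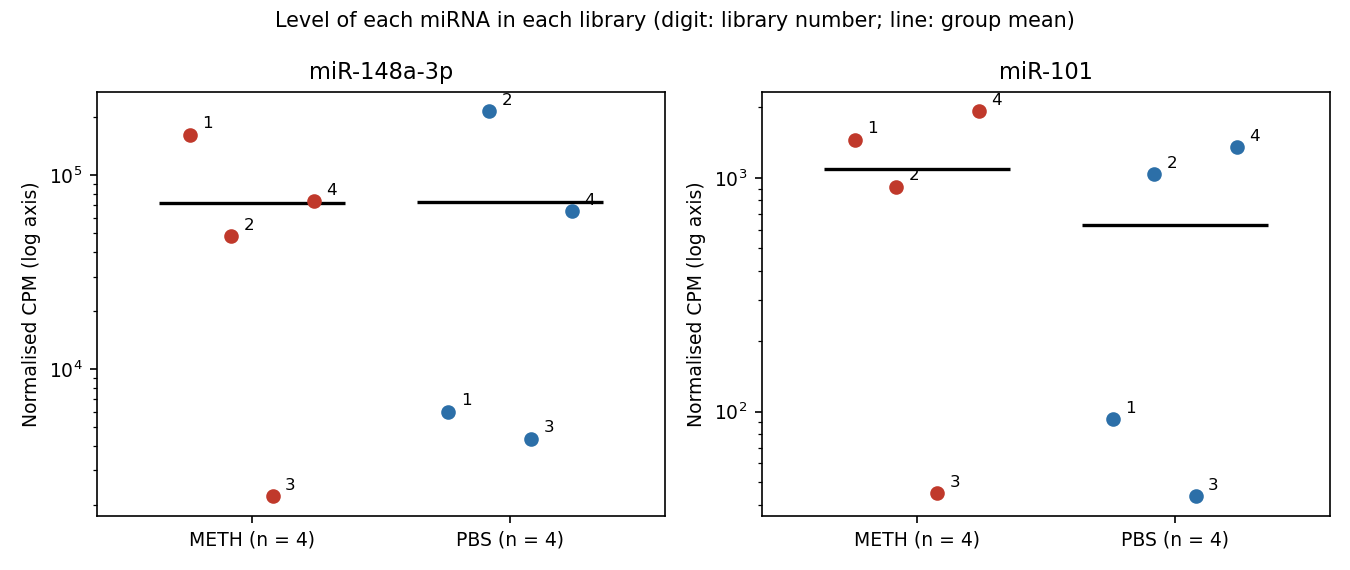
Normalised CPM (log axis) of miR-148a-3p (left) and miR-101 (right) in each METH and PBS library; points are libraries with their number and lines are group means (n = 4 each). METH 3, PBS 1 and PBS 3 lie at or under 6038 for miR-148a-3p and 92.8 for miR-101, below the other 5 libraries, and the groups overlap.

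Between METH and PBS, neither miRNA passed the test. miR-148a-3p averaged 71463 ± 67111 normalised CPM in METH and 72241 ± 98245 in PBS (SD, n = 4 each). The PBS mean was exceeded in 2 of 4 METH libraries. Its log2 fold change, METH over PBS, was −0.02 (SE 1.26, 95% interval −2.77 to 2.74, edgeR adjusted p = 0.999). Its sign depended on single libraries. Leaving out PBS 2 gave 1.49, leaving out METH 3 gave 0.35 and leaving out METH 1 gave −0.78. With libraries scaled to total counts it was 0.12. Without METH 3, PBS 1 and PBS 3 together it was −0.51 (edgeR adjusted p = 0.983).

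miR-101 averaged 1087 ± 808 normalised CPM in METH and 631 ± 663 in PBS (SD, n = 4 each). The PBS mean was exceeded in 3 of 4 METH libraries. The log2 fold change was 0.78 (SE 1.12, 95% interval −1.67 to 3.24, edgeR adjusted p = 0.999). It stayed above 0 without any single library, between 0.35 without PBS 3 and 1.43 without PBS 4, and was 0.23 without METH 3, PBS 1 and PBS 3 (edgeR adjusted p = 0.983). Over all 166 miRNAs that passed the count filter, edgeR called 0, which is 0.00% of them, and 0 had an unadjusted p under 0.05. The DESeq2 test gave 0 calls and 1 miRNA with an unadjusted p under 0.05.

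The number of miR-148a-3p reads for each miR-101 read needs no scaling between libraries. This ratio was 111, 52.6, 47.9 and 38.2 in METH 1 to 4 and 64.6, 206, 99.3 and 48.2 in PBS 1 to 4. METH 1 and PBS 2, the libraries with the most miR-148a-3p, also had the highest ratios, and the groups overlapped. On the log2 scale, with 0.5 added to each count, it averaged 5.84 ± 0.67 in METH and 6.48 ± 0.91 in PBS (SD, n = 4 each). The difference, METH minus PBS, of −0.64 was within the spread (exact two-sided permutation p = 0.286 over 70 splits, smallest possible p 0.0286, n = 4), and 1 of 4 METH libraries lay above the PBS mean. It was −0.24 without PBS 2. With the ratios of miR-148a-3p to miR-148b-3p and to miR-152 given below, 3 ratios were computed, and the adjusted p of this one was 0.857 (exact permutation).

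Of the seed relatives of miR-148a-3p, miR-152 shared its split into low and high libraries and miR-148b-3p did not. miR-152 was low in the same 3 libraries, with 4601, 6368, 261 and 14877 normalised CPM in METH 1 to 4 and 584, 6588, 1406 and 10010 normalised CPM in PBS 1 to 4. miR-148b-3p did not follow them, with 3140, 3777, 7714 and 5526 normalised CPM in METH 1 to 4 and 5268, 2532, 3154 and 3853 normalised CPM in PBS 1 to 4. Its highest level lay in METH 3, where miR-148a-3p was lowest, and its lowest level in PBS 2, where miR-148a-3p was highest. On deposited TPM, METH 3, PBS 1 and PBS 3 were the highest libraries for miR-148b-3p, at 8634, 7768 and 5806 TPM. On normalised CPM, METH 4 lay above PBS 1, and METH 2, PBS 4 and METH 4 lay above PBS 3. miR-144, whose seed is close to that of miR-101, matched none of the 384 names.

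The make-up of the family therefore differed between libraries. Of the reads of the 3 relatives, miR-148a-3p held 95.4%, 82.6%, 21.7% and 78.3% in METH 1 to 4 and 50.8%, 95.9%, 49.0% and 82.5% in PBS 1 to 4. miR-148b-3p held 1.85%, 6.47%, 75.8% and 5.88% in METH 1 to 4 and 44.3%, 1.14%, 35.3% and 4.87% in PBS 1 to 4. It exceeded miR-148a-3p in METH 3 only, and held a larger share in METH 3, PBS 1 and PBS 3 than in the other 5 libraries. The summed level of the family ranged 24.9-fold between libraries, and 4.47-fold once miR-148a-3p was left out. Since the 3 relatives differ by few bases, reads that the authors' counting could assign to another member are an uncertainty of these shares.

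**Figure D2:**
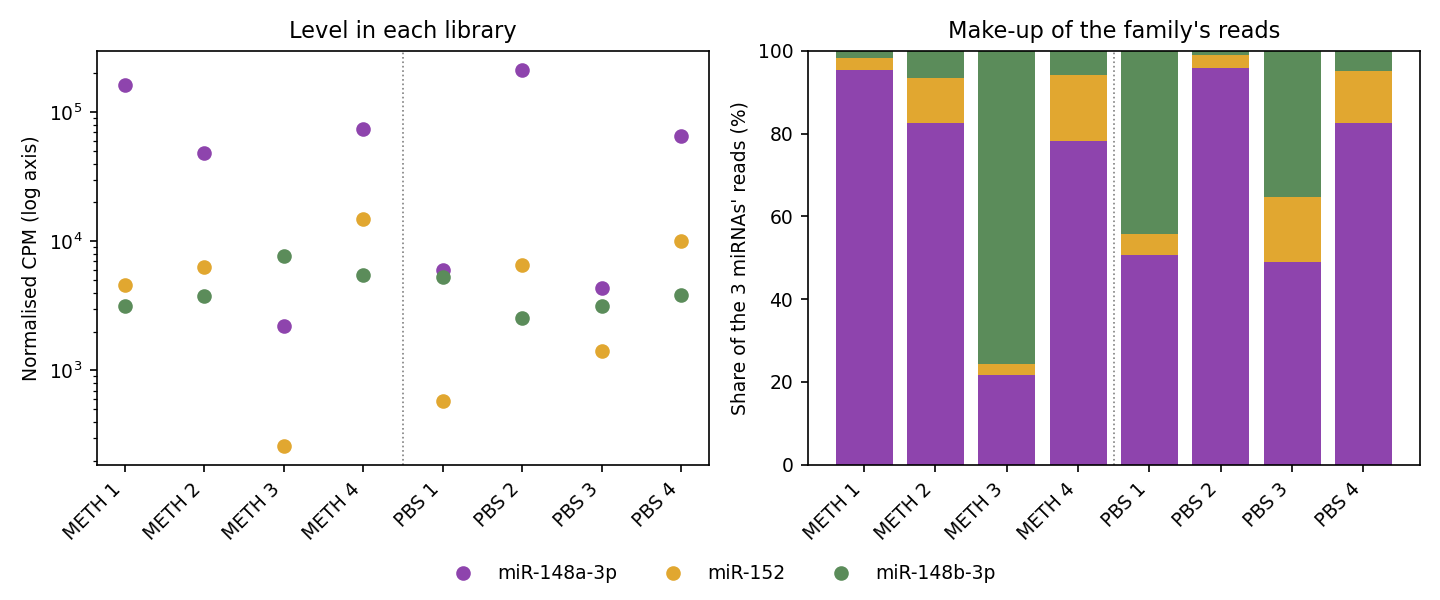
Left, normalised CPM (log axis) of miR-148a-3p, miR-152 and miR-148b-3p in the METH and PBS libraries; right, the percentage of the 3 miRNAs' reads that each one held. miR-148b-3p holds 75.8% in METH 3, 44.3% in PBS 1 and 35.3% in PBS 3, and 6.47% or less in the other 5 libraries.

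None of the family comparisons of METH with PBS passed. miR-148b-3p averaged 5039 ± 2049 normalised CPM in METH and 3702 ± 1175 in PBS (SD, n = 4 each), and 3 of 4 METH libraries exceeded the PBS mean. The log2 fold change was 0.44 (SE 0.51, edgeR adjusted p = 0.999). miR-152 averaged 6527 ± 6130 in METH and 4647 ± 4455 in PBS (SD, n = 4 each). Its log2 fold change was 0.49 (SE 1.05, edgeR adjusted p = 0.999), but −0.28 without METH 4. The log2 ratio of miR-148a-3p to miR-148b-3p averaged 2.82 ± 3.22 in METH and 2.79 ± 2.99 in PBS (SD, n = 4 each; difference 0.04, exact permutation p = 1.00). That to miR-152 averaged 3.36 ± 1.23 in METH and 3.18 ± 1.42 in PBS (SD, n = 4 each; difference 0.18, exact permutation p = 0.83, adjusted over the 3 ratios 1.00). These last 2 ratios were chosen after their values were seen.

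The 10-fold mark that chose both miRNAs was passed by many others. The highest library was 96.8 times the lowest for miR-148a-3p and 44.4 times for miR-101, places 3 and 13 among the 166 tested miRNAs. Of these, 59 or 35.5% passed 10-fold, and the median range was 6.94-fold. Just inside the mark lay novel_58 at 10.4-fold and miR-28-5p at 10.2-fold, and just outside it miR-592 at 9.94-fold and miR-9-5p at 9.88-fold. miR-152 ranged 57.1-fold (place 8), and miR-148b-3p 3.05-fold (place 152).

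Both ranges rest on the 3 low libraries. Without METH 3, PBS 1 and PBS 3, miR-148a-3p ranged 4.42-fold and miR-101 2.10-fold, and 16 tested miRNAs passed 10-fold. Without METH 3 alone miR-148a-3p ranged 48.8-fold, and on deposited TPM, with all libraries, the ranges were 56.2-fold for miR-148a-3p and 30.5-fold for miR-101. METH 3, PBS 1 and PBS 3 lay below the other 5 libraries for 45 of the 166 miRNAs (27.1%) on normalised CPM, and above them for 33 (19.9%). On TPM the numbers were 26 (15.7%) below and 65 (39.2%) above, and miR-148a-3p, miR-101 and miR-152 were among those below on either scale.

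**Figure D3:**
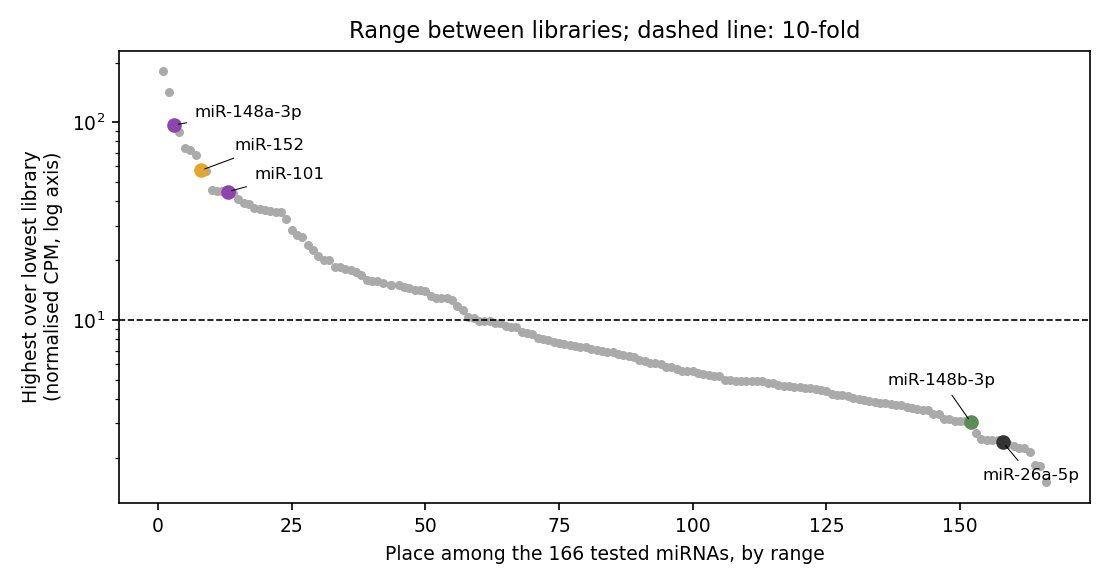
The highest over the lowest library (normalised CPM, log axis) of each of the 166 tested miRNAs, ordered by range, over the 4 METH and 4 PBS libraries; the dashed line is the 10-fold mark. miR-148a-3p (96.8-fold) and miR-101 (44.4-fold) lie high, with miR-152, while miR-148b-3p (3.05-fold) and miR-26a-5p (2.41-fold) lie near the low end.

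Markers of other cell types differed between the same libraries. The fibroblast and smooth muscle list (3 of 6 names measured, miR-143, miR-199b and miR-10b, none at 0 in any library) summed to 33765, 49540, 13571 and 59377 TPM in METH 1 to 4 and to 16689, 60941, 34689 and 59334 TPM in PBS 1 to 4. METH 3 and PBS 1 had the lowest sums, and PBS 3 lay beside METH 1, but the members did not move alike. miR-143-3p was lowest in METH 3, PBS 1 and PBS 3 (1250, 2787 and 9065 TPM) and highest in PBS 2 (52563 TPM). miR-199b-3p was highest in PBS 3 (25593 TPM) and lowest in PBS 2 (8353 TPM), and miR-10b-5p was highest in PBS 1 and PBS 3 (53.2 and 30.9 TPM). The leukocyte and microglia list (2 of 3 names) summed to 795, 883, 5344 and 391 TPM in METH 1 to 4 and to 3110, 806, 4786 and 456 TPM in PBS 1 to 4. METH 3, PBS 1 and PBS 3 were the highest. miR-155-5p, which activated immune cells raise, made up 5344, 3110 and 4778 TPM of these 3 sums. miR-142, the defining miRNA of blood-lineage cells, had 0 reads in METH 3 and PBS 1 and 3 in PBS 3. Its count was highest in METH 1, at 36 reads, with 5 in METH 4, 8 in PBS 4 and 0 in METH 2 and PBS 2.

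The epithelial list (4 of 5 names, miR-141-3p at 0 in 7 libraries) summed to between 4.41 and 513 TPM in METH and between 9.82 and 549 TPM in PBS, highest in METH 3 and PBS 1. Blood and serum miRNAs (2 of 4 names, neither at 0) summed to between 7.76 and 64.9 TPM in METH and between 38.0 and 139 TPM in PBS. For oligodendrocytes, miR-219-5p was found with 4 reads in METH 4, 2 in PBS 4 and 0 in the rest, and of the endothelial and muscle lists 0 names were matched. The part of cell make-up or depth in the low levels of miR-148a-3p and miR-101 in METH 3, PBS 1 and PBS 3 was not tested.

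Other miRNAs known to repress chromatin enzymes were followed as a list of 26 names, of which 18 matched 20 miRNAs and 17 of these passed the count filter. In the METH comparison 0 of them were called, 14 of 17 log2 fold changes were positive and 3 were negative. Their median was 0.24, against 0.21 over all 166 miRNAs, of which 126 were positive and 40 negative. Under other scalings, the list had 12 positive and 5 negative by DESeq2 size factors, where all miRNAs had 93 and 73. By upper quartile factors the list had 13 and 4, and all miRNAs 88 and 78. On total counts the list had 10 and 7, and all miRNAs 64 and 102. Without METH 3, PBS 1 and PBS 3, the list had 8 positive and 9 negative, and all miRNAs had 95 and 78. Without METH 2, the list had 8 and 9 and all miRNAs 105 and 67. Without PBS 1, the list had 9 and 8 and all miRNAs 116 and 53. Without PBS 3, the list again had 9 and 8, and all miRNAs 104 and 64. Without METH 4, the list had 10 and 7 and all miRNAs 119 and 54. In contrast, the list had 16 and 1 without PBS 2, where all miRNAs had 119 and 53. It had 15 and 2 without METH 3, where all miRNAs had 89 and 82. It had 14 and 3 without PBS 4, where all miRNAs had 117 and 55. The list had 12 and 5 without METH 1, where all miRNAs had 112 and 65.

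miR-26a-5p, which like miR-101 represses EZH2, was abundant and nearly even over the libraries. It was at 37077, 39971, 28770 and 39046 normalised CPM in METH 1 to 4 and at 27701, 60276, 25042 and 37839 normalised CPM in PBS 1 to 4, a 2.41-fold range. METH 3, PBS 1 and PBS 3 were its lowest libraries on this scale, but on TPM PBS 3 was its highest, at 46095 TPM. The relative miR-26b-5p ranged 1.84-fold. The EZH2 repressors miR-98-5p and let-7a-5p ranged 4.80-fold and 5.19-fold, and let-7a-5p was scarce, at 120 normalised CPM or less in every library. In the METH comparison, miR-26a-5p had a log2 fold change of −0.06 (SE 0.52).

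Among repressors of DNA methyltransferases, miR-143-3p, a smooth muscle miRNA that targets DNMT3A, ranged 72.4-fold. miR-29b-3p, which targets DNMT3A and DNMT3B, ranged 35.6-fold with 4, 4 and 5 reads in METH 3, PBS 1 and PBS 3, and its relative miR-29a-3p 5.50-fold. miR-185-5p, a DNMT1 repressor, ranged 3.75-fold. miR-29b-3p had the smallest p of the list and averaged 88.7 ± 74.4 normalised CPM in METH and 43.4 ± 45.9 in PBS (SD, n = 4 each; log2 fold change 1.03, SE 1.06, edgeR adjusted p = 0.999). The log2 fold change of miR-143-3p was −0.47 (SE 1.14), and 0.38 without PBS 2. That of miR-29a-3p was 0.47 (SE 0.60).

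For enzymes that remove acetyl groups, miR-140-5p, a cartilage miRNA that targets HDAC4, ranged 44.7-fold, and miR-22-3p, another HDAC4 repressor, 4.18-fold. The SIRT1 repressors miR-34a-5p, a p53 target, and miR-9-5p, a regulator of neurogenesis, had log2 fold changes of 0.56 (SE 0.63) and 0.53 (SE 0.72), and miR-34a-5p had −0.10 without METH 4. Of the 17, 5 ranged more than 10-fold (miR-29b-3p, let-7a-3p, miR-143-3p, miR-152 and miR-140-5p), against 59 of all 166 (35.5%). let-7a-3p is the other arm of let-7a and has another seed. METH 3, PBS 1 and PBS 3 were the lowest libraries for 11 of the 17 on normalised CPM, against 45 of all 166 (27.1%), and for 6 of the 17 on TPM, against 26 of all 166 (15.7%). The 11 include miR-152 and both arms of let-7a.

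**Figure D4:**
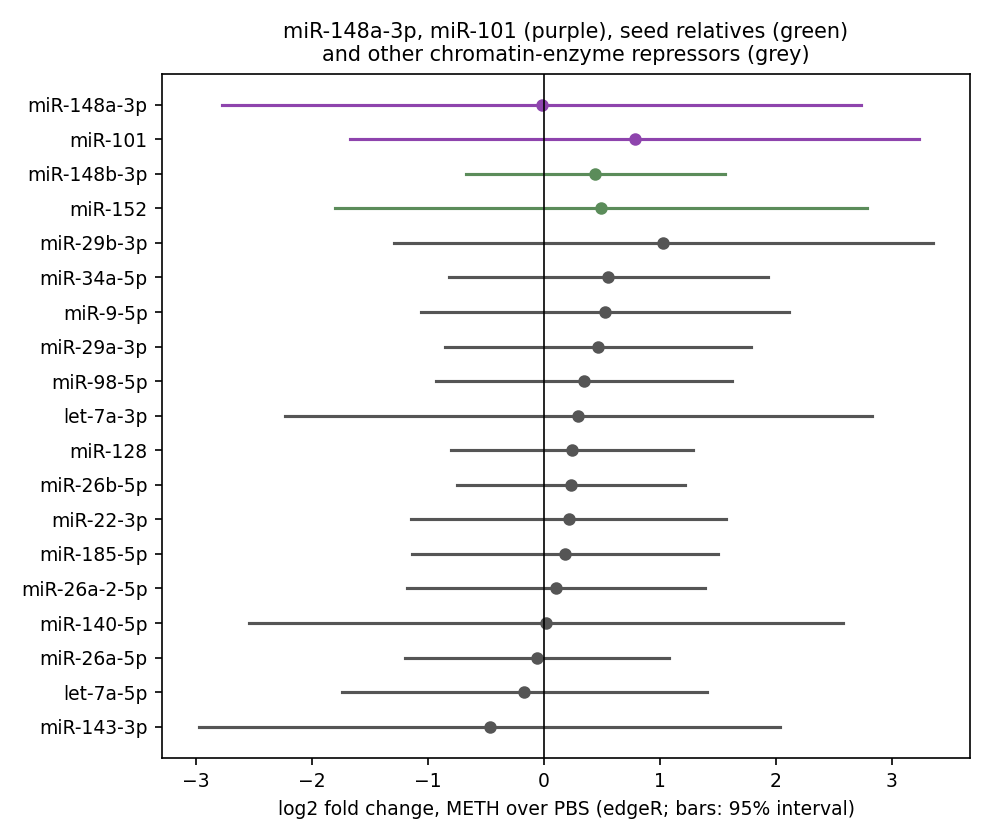
log2 fold change, METH over PBS, with its 95% interval (edgeR, 4 METH and 4 PBS libraries) for miR-148a-3p and miR-101, their seed relatives and the other 15 chromatin-enzyme repressors tested. Every interval includes 0, and that of miR-148a-3p runs from −2.77 to 2.74.

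Likeness to each miRNA was measured as the SD, over the 8 libraries, of the log2 ratio of their normalised levels, where a small SD means a parallel profile. The 165 other tested miRNAs had a median SD of 2.61 to miR-148a-3p and of 2.46 to miR-101. Most like miR-148a-3p were let-7a-3p (SD 0.71), miR-542-3p (0.73), which in human lies in a cluster with miR-424 and miR-503, miR-9771m (0.81), miR-101 (0.81) and miR-143-3p (0.88). Most like miR-101 were miR-539-3p (0.52), which in human lies in the imprinted DLK1-DIO3 cluster, miR-9771m (0.54), miR-21-5p (0.59), miR-542-3p (0.63) and miR-140-5p (0.68). miR-143-3p was at 24319, 27455, 1117 and 45192 normalised CPM in METH 1 to 4 and at 1890, 80855, 4925 and 47980 normalised CPM in PBS 1 to 4, and peaked, like miR-148a-3p, in PBS 2. miR-21-5p was at 528230, 375003, 47001 and 604278 normalised CPM in METH 1 to 4 and at 51060, 515145, 37782 and 583115 normalised CPM in PBS 1 to 4, and peaked, like miR-101, in METH 4. miR-539-3p had 1 read in METH 3 and 2 each in PBS 1 and PBS 3. In METH 3, PBS 1 and PBS 3, let-7a-3p had 2, 6 and 9 reads and miR-542-3p 3, 21 and 10. The low values of these miRNAs are set by few reads. miR-101 was in place 4 for miR-148a-3p, and miR-148a-3p in place 8 for miR-101. miR-152 was in place 10 for each, and miR-148b-3p in places 97 and 92, with SDs of 2.88 and 2.62.

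The parallel profiles rested on the 3 low libraries. Over the other 5 libraries, miR-101 was in place 61 for miR-148a-3p (SD 1.01, median over all 1.16), and miR-148a-3p was in place 131 for miR-101 (median over all 0.68). The seed relatives miR-152 and miR-148b-3p were then in places 118 and 100 for miR-148a-3p (SD 1.35 and 1.25). Of the 5 miRNAs most like miR-148a-3p, 0 remained among the top 5, which were then led by miR-532-5p (SD 0.31) and let-7i-5p (0.36). Of those most like miR-101, 1 remained, miR-21-5p (0.25), and the top places went to the family members miR-181d (0.14) and miR-181b-5p (0.21). Because the libraries fell apart in this way, no correlation between miRNAs was computed.

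**Figure D5:**
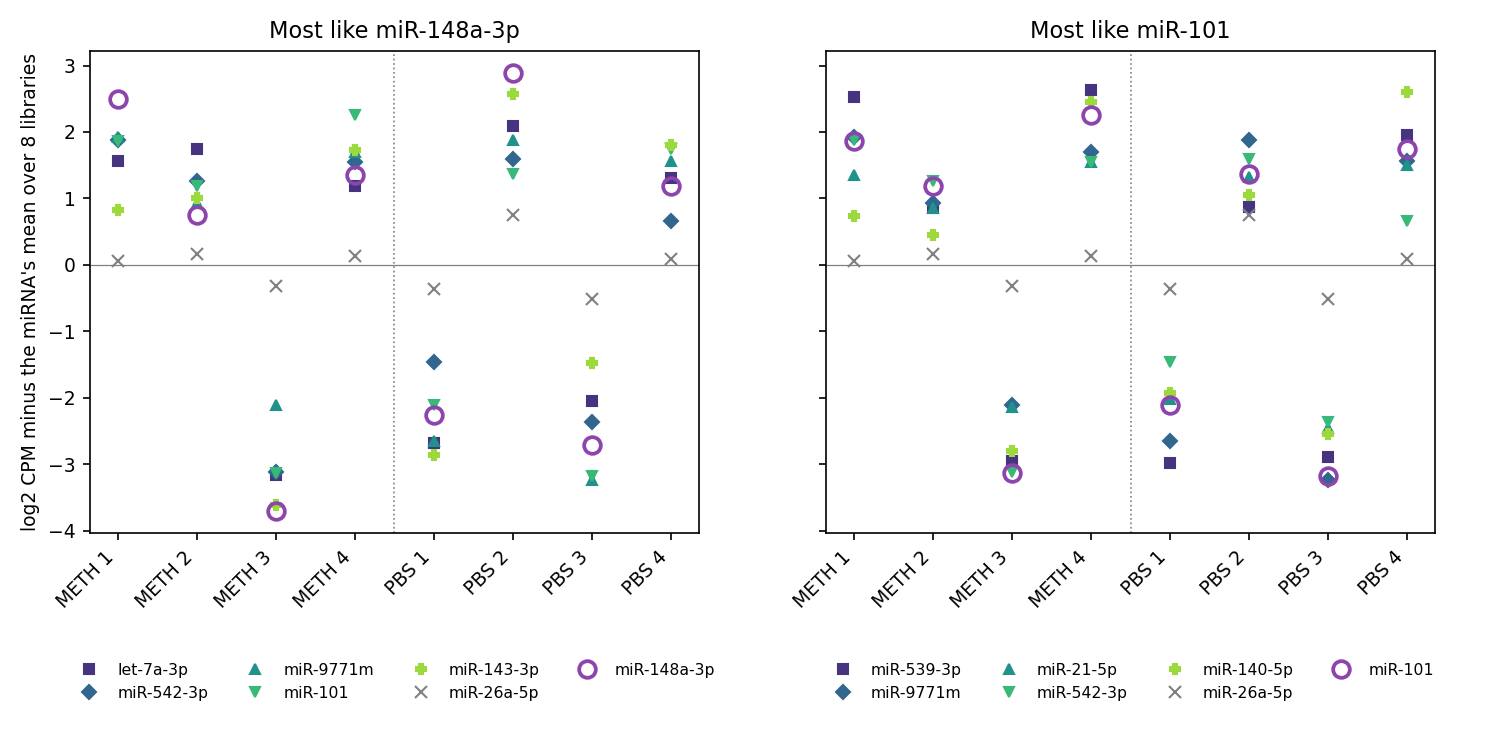
log2 CPM of miR-148a-3p (left) and miR-101 (right), each minus its mean over the 8 libraries, with the 5 miRNAs most like each and the even miR-26a-5p, in the METH and PBS libraries. The alike miRNAs are all low in METH 3, PBS 1 and PBS 3. miR-26a-5p, with a 2.41-fold range, is lowest there too but stays near 0.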

How the data were processed

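Small RNA libraries were made by adapter ligation, reverse transcription, PCR and gel size selection, per the labels' protocols. The authors deposited raw read counts and TPM for 384 miRNAs (159 named, 225 predicted), per the file headers. The deposited TPM equal the count scaled to the library's total of listed miRNA reads, with no length term. For the aligner, the miRNA reference and the build, nothing is given in the sources used here.

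METH was compared with PBS in edgeR 4.0.16 (R 4.3.3) on the counts, with TMM scaling, filterByExpr (minimum count 10, minimum total 15; 166 miRNAs kept), the robust quasi-likelihood F test and Benjamini-Hochberg adjustment over all 166 at 0.05. Intervals of fold changes use the test's degrees of freedom. Alternatives were DESeq2 1.42.0, other scalings and filters, a replicate block, and left-out libraries. The test was tested on simulated data, where it had to pass only at a dispersion (edgeR's measure of spread beyond counting error) of 0.05. The common dispersion of these data was 0.62, so that pass does not show its power here. log2 CPM used a prior count of 2. A library at 0 was set to 3 counts for ranges. Ratios were compared by exact permutation.

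Named miRNAs are both members, their seed relatives, a list of chromatin-enzyme repressors (values for the 4 most abundant and the 4 of smallest p, others after their ranges were seen), and the 5 miRNAs most like each member. Members, lists and rules were chosen with earlier results of these data known. RefSeq's TupChi_1.0 gene table lists 1 gene each for miR-101, miR-148a, miR-148b and miR-152.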

Additional observations from a re-analysis of the deposited data

How the results depend on the processing

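No alternative called any miRNA, so every fold change kept its side of the threshold. This does not show stable values, since signs and sizes changed as given below. Relative to TMM, the median log2 fold change of all miRNAs moved by −0.35 on total counts, −0.16 by upper quartile factors and −0.15 by DESeq2 size factors. miR-148a-3p, at −0.02, had 0.12 on total counts and 0.031 with a replicate block. Leaving out each library in turn gave −0.78 to 1.49 for miR-148a-3p, 0.35 to 1.43 for miR-101, −0.28 to 1.14 for miR-152, −0.31 to 0.29 for miR-26a-5p, −0.92 to 0.38 for miR-143-3p and −0.10 to 0.74 for miR-34a-5p. It gave −0.96 to −0.24 for the log2 ratio of miR-148a-3p to miR-101, −0.92 to 1.58 for that to miR-148b-3p and −0.41 to 0.79 for that to miR-152. It gave 48.8 to 96.8 for the fold range of miR-148a-3p, 33.6 to 44.4 for that of miR-101 and 51 to 59 for the number of miRNAs past 10-fold. Without METH 3, PBS 1 and PBS 3, an alternative added for the ranges and the likeness after the data were seen, miR-152 had −0.011, the ratios to miR-148b-3p and miR-152 had −0.87 and −0.41, the ranges were 4.42 and 2.10, 16 miRNAs passed 10-fold, and 0 and 1 of the 5 most alike miRNAs were shared. The range of miR-148a-3p was 56.2 on total counts and 114 with DESeq2 size factors, and that of miR-101 30.5 on total counts. With the median absolute difference as the measure, 2 of the 5 miRNAs most like miR-148a-3p were shared. The cause of these changes was not tested.

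The labels do not say if the library numbers pair the samples, and the profiles do not settle it. Deviations from the group mean correlated at −0.25 between METH 1 and PBS 1, and METH 1 lay closest to PBS 2 (0.53). For the other numbers the correlation was 0.54, 0.77 and 0.89, each the highest of that METH library. METH 3 also had 0.77 with PBS 1. METH 4 and PBS 4, which correlated at 0.89, were also by far the deepest libraries, with 6702946 and 7334789 counts. Whether they share a batch was not tested. Without both, 111 log2 fold changes of all miRNAs were positive and 60 were negative. With the replicate block, edgeR called 0 miRNAs, with 2 at an unadjusted p under 0.05. In that setting miR-101 had a log2 fold change of 0.94, miR-26a-5p had 0.020, and the ratio of miR-148a-3p to miR-101 was −0.64 (exact sign-flip permutation p = 0.375). With 4 pairs a two-sided sign-flip test cannot reach 0.05, so no conclusion is drawn from it. Depth limits miR-101 in METH 3 and PBS 3, at 17 and 31 reads.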

Other observations

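The arms of let-7a, both made from let-7a precursors, differed in range. let-7a-3p was at 166, 189, 5.27 and 127 normalised CPM in METH 1 to 4 and at 7.74, 239, 12.6 and 138 normalised CPM in PBS 1 to 4, a 45.4-fold range with 2 reads in METH 3. let-7a-5p was at 67.1, 71.2, 23.7 and 53.9 normalised CPM in METH 1 to 4 and at 23.2, 120, 42.0 and 58.4 normalised CPM in PBS 1 to 4, a 5.19-fold range. let-7a-5p lay below let-7a-3p in all libraries but METH 3, PBS 1 and PBS 3. Its family member let-7f-5p averaged 42521 normalised CPM in METH and 44897 in PBS. Whether reads of let-7a-5p were counted under a relative was not tested, so the comparison of arms is uncertain. Of the 15 miRNAs of the tree shrew miR-9771 group listed, 2 were tested. miR-9771m was low in METH 3, PBS 1 and PBS 3 like miR-101, with a 36.7-fold range. miR-9771f was above the other 5 libraries in those 3, with a 6.49-fold range. These miRNAs were chosen after their values were seen.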
